A study of Mus musculus with 71 samples.

Results

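The 10 Frizzled receptor genes of the mouse, Fzd1 to Fzd10, were followed through the Polycomb occupancy maps of cells that carried different forms of CBX7. A region was counted as theirs when the deposited annotation gave it a Frizzled gene name and placed it at most 10 kb from that gene's transcription start. By this rule 92 of 72567 regions belonged to the family, spread over 9 peak tables. Fzd1, Fzd6 and Fzd9 had a region in all 9 tables, Fzd2, Fzd3 and Fzd8 in 8, Fzd4 and Fzd5 in 7, Fzd7 in 6 and Fzd10 in 3. The rule reads gene name and position, though the family was picked with earlier results of these data known. Where a gene had several peaks in a table, its values and its place in the counts are those of the peak with the highest mean, unless another peak is named.

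The study asked what happens to PRC1, the Polycomb complex that holds RING1B and a CBX protein, when a domain that such complexes carry in committed cells is brought into the CBX7 of pluripotent cells. The groups were J1 mouse embryonic stem cells (ESC) with the CBX7-CaPS form, with the CBX7-mCaPS form, or with wild-type (WT) CBX7, and the sources used here do not say what the letters of mCaPS stand for. The CBX7-CaPS cells (CaPS) and WT cells were also studied as neural progenitor cells (NPC) on days 6 and 8 and as embryoid bodies (EB) on day 10, while mCaPS cells were present as ESC only. ESC grew on mouse embryonic fibroblast feeders with LIF. NPC came from suspension aggregates made without feeders or LIF and then given retinoic acid, and EB from hanging drops, so a change of stage is also a change of culture. CBX7, RING1B and H3K27me3 were mapped by ChIP-seq with Drosophila chromatin added as a spike-in, or by CUT&RUN in native conditions, and peaks were called over input or over IgG. The libraries were made in numbered experiments, and genotypes were compared within the same experiment. Nothing in the labels says that the experiments used separate cell lines or clones, so p-values rest on a spread between libraries that may be technical. That spread, also behind the SEs, was the one usual for peaks of like strength, not that of each gene alone.

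Frizzled proteins are the cell-surface receptors for Wnt ligands. They pass the signal on with the co-receptors Lrp5 and Lrp6 to beta-catenin, or without them to the planar cell polarity pathway that orients cells in a sheet. In pluripotent cells many genes of developmental signalling are covered by Polycomb complexes: PRC2 places the histone mark H3K27me3, CBX7 is the PRC1 subunit that reads it, and RING1B is the catalytic subunit of PRC1. Occupancy is not expression, and no RNA was measured in the data used here. In these bulk samples, occupancy in fewer cells and less occupancy per cell cannot be told apart.

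All values are tags within a peak, scaled by the authors to a library total of 10 M (tags per 10 M). Library totals ran from 2.01 to 49.13 M tags, and a count of 0 allowed up to 0.611 to 14.947 tags per 10 M, counting error only. The share of tags inside peaks varied with experiment as well as with genotype. In the CBX7 libraries of ESC it was 2.63, 7.1 and 3.63% in CaPS cells and 6.4, 17 and 5.57% in WT cells, for experiments 1, 2 and 3. Occupancy does not report which genes the cells expressed, so the cell type labels could not be checked in the usual way. Of 4 neural progenitor genes with a RING1B peak, 2 were lower on day 8 than in ESC in CaPS cells and 3 in WT cells, beside 14.1% of all peaks in CaPS cells and 20.9% in WT cells. Of 3 ESC genes 1 was lower in each genotype, and Sox2 was higher in CaPS cells (log2 ratio 1.80, limma adjusted p = 0.001802). Of 3 germ layer genes 2 were lower in CaPS cells and 1 in WT cells. Of 3 fibroblast genes, the feeder cell type, 2 were lower in CaPS cells and 3 in WT cells, and the part of feeder chromatin in the ESC values was not tested.

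RefSeq promoter sequences of GRCm38.p6, the build of the peak coordinates (mm10), were matched for 6 of the 10 genes. The 4 printed here belong to the members on which the results turn. Fzd1 had the highest CBX7 level per kilobase of the family. Fzd5 and Fzd7 had only short CBX7 peaks in ESC and were the members whose RING1B ratios of days 6 and 8 to ESC were above 1 in both genotypes at their strongest peak. In the time course, the Fzd10 start lay under a RING1B peak. That peak had more tags in CaPS than in WT cells on days 6 and 8, as had those of Fzd2, Fzd7 and Fzd8. Each runs from 250 bases before to 50 bases after the start, 5′ to 3′ on the gene's strand, and capitals mark CG dinucleotides, which read the same on both strands. The windows are chr5:4758167-4758466 on the minus strand for Fzd1, chr1:64737701-64738000 on the minus strand for Fzd5, chr1:59481897-59482196 on the plus strand for Fzd7 and chr5:128600856-128601155 on the plus strand for Fzd10.
Fzd1: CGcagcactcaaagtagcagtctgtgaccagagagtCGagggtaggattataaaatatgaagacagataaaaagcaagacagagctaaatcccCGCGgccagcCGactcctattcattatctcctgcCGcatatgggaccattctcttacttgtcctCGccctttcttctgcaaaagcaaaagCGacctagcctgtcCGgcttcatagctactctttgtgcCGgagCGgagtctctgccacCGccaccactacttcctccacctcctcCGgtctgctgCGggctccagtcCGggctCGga
Fzd5: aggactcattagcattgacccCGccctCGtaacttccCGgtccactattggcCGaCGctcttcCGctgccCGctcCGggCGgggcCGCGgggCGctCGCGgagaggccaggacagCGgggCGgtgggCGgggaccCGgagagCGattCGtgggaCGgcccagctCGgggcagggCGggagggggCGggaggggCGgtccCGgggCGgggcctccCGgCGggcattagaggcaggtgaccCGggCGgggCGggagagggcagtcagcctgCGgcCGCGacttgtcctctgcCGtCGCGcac
Fzd7: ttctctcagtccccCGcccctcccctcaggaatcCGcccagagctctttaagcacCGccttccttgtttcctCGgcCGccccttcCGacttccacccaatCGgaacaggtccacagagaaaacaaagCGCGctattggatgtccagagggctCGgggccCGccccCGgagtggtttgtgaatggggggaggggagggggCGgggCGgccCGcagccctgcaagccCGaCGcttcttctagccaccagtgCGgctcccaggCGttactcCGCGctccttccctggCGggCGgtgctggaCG
Fzd10: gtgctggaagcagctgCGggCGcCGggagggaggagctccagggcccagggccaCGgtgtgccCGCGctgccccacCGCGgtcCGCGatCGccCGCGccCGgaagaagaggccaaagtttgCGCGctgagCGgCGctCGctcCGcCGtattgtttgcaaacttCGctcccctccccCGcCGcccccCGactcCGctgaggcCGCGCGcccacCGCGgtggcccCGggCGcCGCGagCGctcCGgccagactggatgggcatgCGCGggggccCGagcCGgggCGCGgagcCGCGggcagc

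CG counts in these windows differed widely within the family. The Fzd1 window held 16 CG dinucleotides, the Fzd7 window 24, the Fzd4 window 32, the Fzd5 window 38, the Fzd10 window 45 and the Fzd9 window 53. Among 32851 RefSeq promoters of the same length the median was 7. At least 16 were found in 33.0% of them, at least 24 in 20.0%, at least 32 in 9.52%, at least 38 in 4.95%, at least 45 in 1.93% and at least 53 in 0.451%. Fzd1, with the highest CBX7 level per kilobase, had the fewest CG dinucleotides of the 6 windows. Fzd2, close to it in CBX7 per kilobase in WT ESC (90.0 against 91.8), and Fzd8 had no matched window. A link of CG count to CBX7 was not tested. The CBX7 and RING1B ChIP peaks of ESC covered all 300 bases at Fzd1, Fzd4 and Fzd10, 64 bases at Fzd9, 29 bases at Fzd5 and none at Fzd7, whose peak began downstream of the start. RING1B CUT&RUN peaks of ESC covered all 300 bases at all 6 genes. H3K27me3 ChIP peaks of ESC covered none of the 6 windows, while H3K27me3 CUT&RUN peaks of ESC covered all 300 bases at Fzd1 and Fzd9.

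Within the genes, most of the strongest ESC peaks for CBX7 and RING1B lay over or just after the start. The Fzd1 peak, chr5:4755044-4759854, was annotated as exonic, with its centre 767 bases into the gene. The Fzd2 peak, chr11:102604483-102607488, was also exonic. The Fzd3 peak, chr14:65260743-65263273, and the Fzd6 peak, chr15:39006318-39007698, were intronic. The Fzd4 peak, chr7:89402576-89406096, was a promoter peak. The Fzd9 peak, chr5:135249508-135251061, was exonic, and the Fzd8 peak was a promoter peak 6375 bases wide. Fzd5 and Fzd7 had only short peaks, at chr1:64736845-64737343 in an intron and at chr1:59483245-59484181 in an exon. The peak over the Fzd10 start, chr5:128596274-128602990, was annotated to the neighbouring 5930412G12Rik, so it is not a member by the rule and is given apart from the counts.

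CBX7 was lower in CaPS ESC than in WT ESC at 8 of the 9 Frizzled genes that had a CBX7 peak. The fitted differences reached 2.87-fold at Fzd6, a receptor that acts in planar cell polarity, 2.71-fold at Fzd2 and 2.57-fold at Fzd1, both members of the Fzd1, Fzd2 and Fzd7 subfamily. Fzd5, which is needed for eye development in the mouse, was the exception at its strongest peak. Across all 6326 peaks 44.3% were lower and 0.0632% higher in CaPS ESC by the same test (limma on log2 values plus 1, with the experiment as a block, adjusted p under 0.05).

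Fzd1 had 87.57, 315.60 and 137.48 tags per 10 M in CaPS ESC of experiments 1, 2 and 3, against 349.10, 715.36 and 260.50 in WT ESC. Fzd2 had 49.76, 155.90 and 76.73 in CaPS ESC, against 158.75, 500.26 and 152.73 in WT ESC. At both genes the genotypes overlapped across experiments, with experiment 2 high in both, but CaPS was below WT in each of the 3 experiments. Fzd6 had 5.97, 22.81 and 16.08 in CaPS ESC, against 35.79, 78.22 and 22.06 in WT ESC. Fzd8, a receptor closest to Fzd5 and known from the developing forebrain, had 85.58, 226.24 and 116.52 in CaPS ESC, against 262.68, 584.18 and 219.77 in WT ESC. At Fzd6 and Fzd8 too, the highest CaPS value, from experiment 2, was just above the lowest WT value, from experiment 3. The log2 ratios of CaPS over WT were −1.52 ± 0.339 (SE, limma adjusted p = 6.654e-05) at Fzd6 and −1.44 ± 0.268 (limma adjusted p = 2.552e-06) at Fzd2. They were −1.36 ± 0.27 (limma adjusted p = 9.13e-06) at Fzd1 and −1.29 ± 0.268 (limma adjusted p = 2.06e-05) at Fzd8. At all 4 genes CaPS was lower in 3 of 3 experiments, with the smallest gap in experiment 3, where the log2 ratio was −0.92 at Fzd1 and −0.43 at Fzd6.

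**Figure D1:**
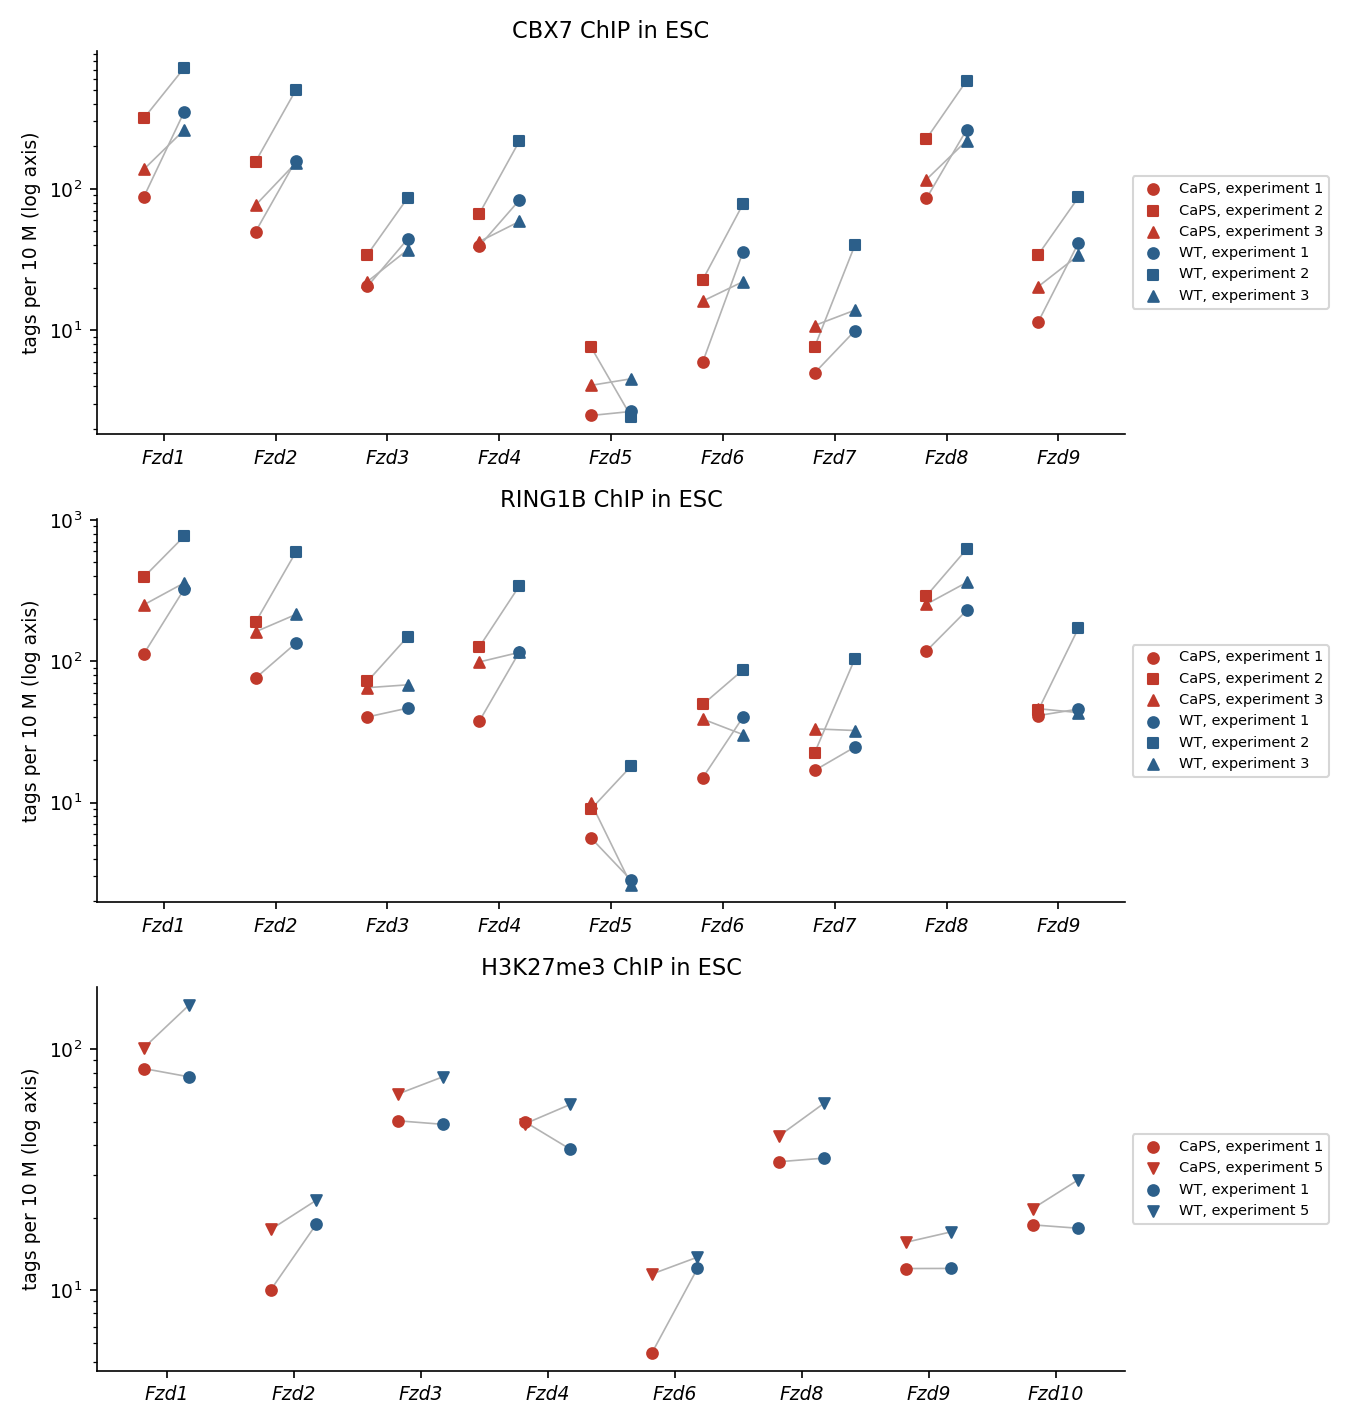
CBX7, RING1B and H3K27me3 ChIP values (tags per 10 M, log axis) at the strongest peak of each Frizzled gene in every ESC library, CaPS left of WT, with grey lines joining the libraries of one experiment and marker shapes giving the experiment. CBX7 lines rise from CaPS to WT at all genes but Fzd5, while H3K27me3 lines run both ways.

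Fzd9, known from bone and brain, had 11.44, 34.22 and 20.35 tags per 10 M of CBX7 in CaPS ESC, against 41.50, 87.18 and 33.94 in WT ESC. Fzd4, the receptor for Norrin in retinal vessels, had 39.31, 66.54 and 42.33 in CaPS ESC, against 83.37, 218.36 and 58.83 in WT ESC. Fzd3, needed for axon guidance in the mouse, had 20.40, 34.22 and 22.08 in CaPS ESC, against 44.16, 86.36 and 37.05 in WT ESC. Each of these was lower in CaPS in 3 of 3 experiments, with log2 ratios of −1.27, −1.08 and −1.04 (limma adjusted p = 0.000353, 0.000628 and 0.00284). The genotypes did not overlap at Fzd3. Fzd7, the Frizzled gene most associated with pluripotent cells, had 4.98, 7.60 and 10.79 in CaPS ESC, against 9.90, 39.92 and 13.86 in WT ESC. Its log2 ratio was −1.15 ± 0.411 (limma adjusted p = 0.0145), and it rested on few tags. Fzd5 had 2.49, 7.60 and 4.07 in CaPS ESC, against 2.66, 2.44 and 4.53 in WT ESC, a log2 ratio of 0.38 ± 0.624 (limma adjusted p = 0.669). The Fzd5 genotypes overlapped, and CaPS was below WT in experiments 1 and 3 and above it in experiment 2. Its peak nearest to the start, chr1:64737972-64738470, had 0, 0 and 2.65 in CaPS ESC, against 3.43, 4.89 and 1.13 in WT ESC, a log2 ratio of −1.31 (limma adjusted p = 0.231). The direction at Fzd5 thus turned with the peak used. The peak over the Fzd10 start had 82.60, 121.68 and 86.60 in CaPS ESC, against 162.18, 380.49 and 112.57 in WT ESC, with a log2 ratio of −0.99 (limma adjusted p = 0.00104).

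The median CBX7 log2 ratio of the 9 genes was −1.27, beside −0.88 over the strongest peak of every gene and −0.85 over all peaks. The lower values were thus part of a lower CBX7 signal over most peaks, which moved with the share of tags in peaks given above. The part of that share in the gene values was not tested beyond rescaling: with all libraries set to the same sum in peaks the median of all peaks moved from −0.85 to 0.11, and 0 of the 9 genes passed the limma test. The count was also 0 without the experiment as a block, without limma's trend and with DESeq2. With edgeR's TMM scaling 3 passed, Fzd1 at −0.47, Fzd2 at −0.53 and Fzd8 at −0.41. Without experiment 1 the 3 called genes were Fzd2, Fzd4 and Fzd8, and without experiment 2 the 5 called genes were Fzd1, Fzd2, Fzd6, Fzd8 and Fzd9.

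Per kilobase of peak, CBX7 levels in ESC put the same 3 genes first in both genotypes. Fzd1 averaged 37.5 ± 24.9 tags per 10 M per kb in CaPS ESC and 91.8 ± 50.1 in WT ESC (SD, n = 3 each). Fzd2 averaged 31.3 ± 18.4 in CaPS ESC and 90.0 ± 66.2 in WT ESC, and Fzd8 22.4 ± 11.6 in CaPS ESC and 55.8 ± 31.3 in WT ESC. In WT ESC the order went on with Fzd9 at 34.9, Fzd4 at 34.1, Fzd6 at 32.8, Fzd7 at 22.7 and Fzd3 at 22.1. Each step down to Fzd3 was smaller than the larger SD of its 2 genes, although the steps from Fzd2 to Fzd8 and from Fzd8 to Fzd9 (± 18.5) exceeded the smaller one. The step from Fzd3 (22.1 ± 10.5) to Fzd5 (6.43 ± 2.3) exceeded both SDs.

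CBX7 at other genes of the Wnt pathway is read against the 44.3% of all peaks called lower. Among the Wnt ligands 17 of 18 genes with a peak passed the test with lower CBX7 and none with higher, with a median log2 ratio of −1.12, and the exception was Wnt10a at −0.63 (limma adjusted p = 0.0946). Lower values passed the test at 3 of 4 co-receptors, 4 of 6 genes of receptor turnover, 6 of 9 secreted antagonists, 3 of 8 intracellular transducers and 2 of 5 planar cell polarity genes. Their medians were −1.01, −0.96, −1.16, −0.72 and −0.72, beside −0.88 over the strongest peak of every gene, so transducers and planar cell polarity genes were not above that background in count or size.

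**Figure D2:**
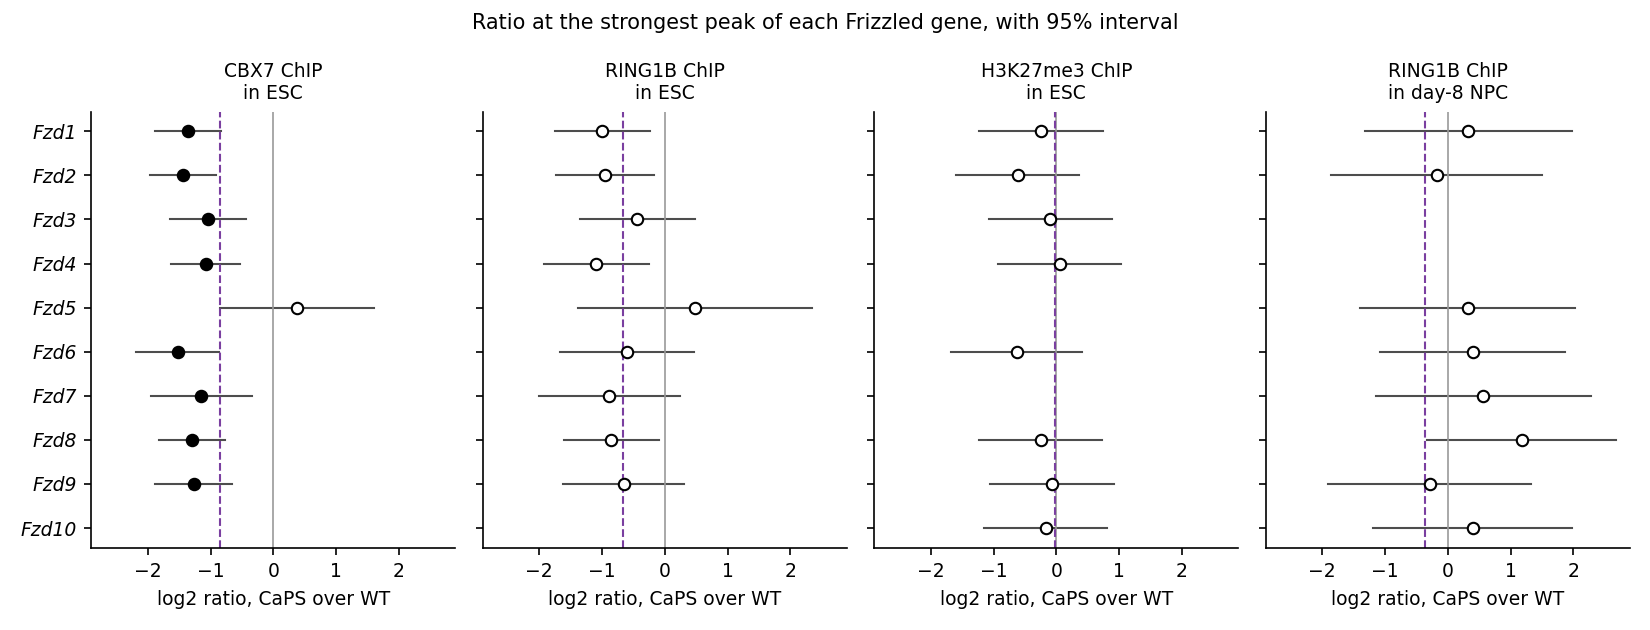
Log2 ratio of CaPS over WT with its 95% interval at the strongest peak of each Frizzled gene for CBX7, RING1B and H3K27me3 ChIP in ESC and for RING1B ChIP in day-8 NPC; filled points passed the limma test at an adjusted p under 0.05 and the dashed line is the median of all peaks. Filled points occur in the CBX7 panel alone, at 8 of 9 genes.

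RING1B ChIP was read over the same intervals. It was lower in CaPS ESC at 8, 9 and 5 of 9 Frizzled genes in experiments 1, 2 and 3. In the fit 8 of 9 genes had a log2 ratio below 0, beside 89.4% of all peaks, and none passed the test. Of all 6326 peaks 0.142% were called lower and 0.0% higher (9 peaks, against 1174 with an unadjusted p under 0.05). Fzd1 had 112.47, 393.04 and 250.42 tags per 10 M in CaPS ESC of experiments 1, 2 and 3, against 322.36, 763.33 and 357.41 in WT ESC. Fzd2 had 75.91, 188.66 and 161.47 in CaPS ESC, against 134.02, 590.63 and 214.03 in WT ESC. Fzd8 had 118.09, 289.73 and 253 in CaPS ESC, against 228.54, 621.16 and 360.8 in WT ESC. CaPS was lower in 3 of 3 experiments at these genes, yet the genotypes overlapped. Fzd4 had 37.49, 125.77 and 98.73 in CaPS ESC, against 116.39, 341.59 and 115.49 in WT ESC. Fzd7 had 16.87, 22.46 and 33.22 in CaPS ESC, against 24.69, 104 and 32.33 in WT ESC, so in experiment 3 the genotypes were close.

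The fitted log2 ratios for RING1B were −1.09 at Fzd4, −0.99 at Fzd1, −0.95 at Fzd2, −0.88 at Fzd7 and −0.85 at Fzd8 (limma adjusted p = 0.169, 0.166, 0.194, 0.384 and 0.225). The remaining genes, Fzd3, Fzd5, Fzd6 and Fzd9, lay between −0.66 and 0.49. The median of the 9 genes was −0.85, beside −0.69 over the strongest peak of every gene. In experiment 3 CaPS was below WT at 5 of 9 genes, and the median log2 ratio of all peaks was −0.53, −1.42 and 0 in experiments 1, 2 and 3. Without experiment 3, the limma test called 4 genes lower, Fzd4 at −1.52, Fzd1 at −1.23, Fzd2 at −1.23 and Fzd8 at −1.02. Calls over all 6326 peaks then rose as well, from 9 to 1099. Of the other Wnt pathway genes only Nkd1, an inhibitor of the pathway, passed the RING1B test (log2 ratio −1.95, limma adjusted p = 0.0242).

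In RING1B CUT&RUN of ESC, with 1 library each of CaPS, mCaPS and WT cells and hence no test, Fzd1 had 0 tags in CaPS, 31.75 tags per 10 M in mCaPS and 103.72 in WT. With the 0 set to a floor of 3 tags this was 39.2-fold lower in CaPS than in WT, where the peak chr5:4754400-4759094 held 198 tags. The 95% interval of the ratio reached up to 0.0317. Fzd8 had 58.22 in CaPS, 41.01 in mCaPS and 130.17 in WT, and its ratio of CaPS to WT was 0.447 (95% interval 0.335 to 0.588, exact binomial on the tags, counting error only). Fzd1 and Fzd8 were the 2 of 9 genes past 2-fold lower in CaPS, where 27.3% of all 10106 peaks were past 2-fold lower and 0.861% past 2-fold higher. The median ratio of the 9 genes was 0.668, beside 0.633 for all peaks.

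The 0 at Fzd1 was shared by its neighbourhood. From the first peak of chromosome 5 onward, chr5:3341502-9266723, all 15 RING1B CUT&RUN peaks over 5.925 Mb held 0 tags in the CaPS library. The floor there was 2.65 tags per 10 M. The same 15 peaks had a median of 7.94 tags per 10 M in mCaPS, from 0.88 to 31.75, and a median of 19.38 in WT, from 2.62 to 103.72. Together they held 696 tags in WT. The peaks were annotated to 14 genes, among them Cdk6, Cdk14, Steap2, Steap4, Adam22, Abcb4, Crot and Dmtf1. Cdk6, for example, had 0 in CaPS, 26.02 in mCaPS and 50.02 in WT. The next peak along the chromosome, chr5:9724803-9726358 at Grm3, had 13.23 in CaPS, 15.43 in mCaPS and 38.5 in WT.

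Of all 10106 peaks 64 were at 0 in CaPS, 15 of them in this stretch and 23 in a second run, chr1:39361790-44552793, that holds no Frizzled gene. Fzd5 and Fzd7 also lie on chromosome 1 but outside that run. The other CaPS libraries had tags in the stretch. RING1B ChIP was above 0 at 15 of 15 peaks in each of the 3 experiments, and CBX7 ChIP at 14, 13 and 15 of 15. H3K27me3 CUT&RUN was above 0 at 12 of 12 peaks of CaPS ESC, and RING1B CUT&RUN of CaPS EB at 12 of 12. In the RING1B time course 0s occurred in the shallower experiment 5 of both genotypes, at 6 of 27 peaks in CaPS ESC and 6 of 27 in WT ESC. The Fzd1 value of 0 therefore belongs to a run of 0s in 1 library, and what gave that run was not tested.

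**Figure D3:**
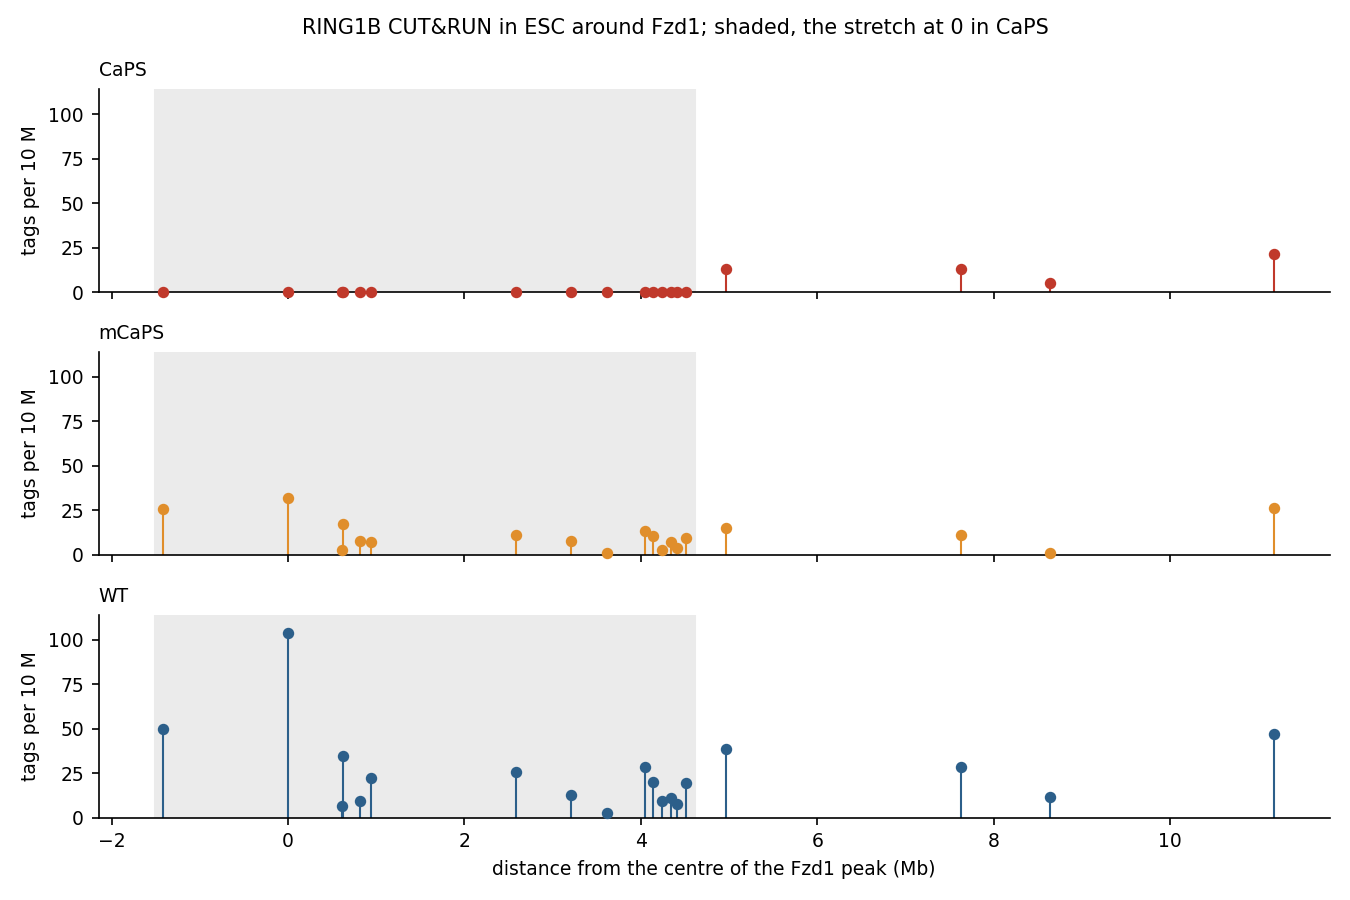
RING1B CUT&RUN values (tags per 10 M) of ESC peaks by distance in Mb from the centre of the Fzd1 peak, in CaPS, mCaPS and WT panels, with the stretch of 0s shaded. All 15 shaded peaks are at 0 in CaPS, while mCaPS has up to 31.75 and WT up to 103.72 there.

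At the other 7 Frizzled genes the CUT&RUN ratio of CaPS to WT lay between 0.648 at Fzd2 and 0.870 at Fzd6. Fzd7 had 31.31 in CaPS, 14.11 in mCaPS and 46.88 in WT, and Fzd2 had 59.54 in CaPS, 44.98 in mCaPS and 91.93 in WT. Fzd9 had 19.85 in CaPS, 19.84 in mCaPS and 25.41 in WT. The mCaPS library was below the CaPS library at Fzd7 and Fzd2 and equal to it at Fzd9 in tags, and 5 of 9 genes were past 2-fold lower in mCaPS than in WT: Fzd7 at a ratio of 0.301 (95% interval 0.166 to 0.519), Fzd1 at 0.306 (0.208 to 0.438), Fzd8 at 0.315 (0.228 to 0.436), Fzd4 at 0.465 and Fzd2 at 0.489. That share stands beside 51.4% of all peaks lower and 0.623% higher. Between mCaPS and CaPS, Fzd7 was past 2-fold lower in mCaPS, with a ratio of 0.451 (95% interval 0.236 to 0.848). Fzd1 was 12.0-fold higher in mCaPS with the CaPS 0 set to 3 tags (95% interval of the ratio from 9.27 upward). These stand beside 14.9% of all peaks lower and 5.28% higher. The share of tags in peaks was 3.01% in CaPS, 2.07% in mCaPS and 4.61% in WT. With equal sums in peaks 0 genes were past 2-fold lower in mCaPS than in WT and 1 in CaPS than in WT, namely Fzd1. These comparisons share the WT or the CaPS library. The Wnt ligands stood at 5 of 18 past 2-fold lower in CaPS and 15 of 18 in mCaPS against WT.

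H3K27me3 in ESC passed the test between genotypes at none of the 8 Frizzled genes with a ChIP peak, and at none of 9195 peaks (0.0% lower, 0.0% higher, 101 peaks with an unadjusted p under 0.05, limma). Fzd1 had 83.22 and 101.42 tags per 10 M in CaPS ESC of experiments 1 and 5, against 76.81 and 153.32 in WT ESC. Fzd2 had 10.01 and 17.84 in CaPS ESC, against 18.82 and 23.63 in WT ESC. Fzd8 had 34.11 and 43.57 in CaPS ESC, against 35.33 and 59.88 in WT ESC. CaPS was below WT in both experiments at Fzd2 and Fzd8, and in experiment 5 alone at Fzd1. Fzd6 had 5.46 and 11.64 in CaPS ESC, against 12.29 and 13.69 in WT ESC. Fzd10 had 18.65 and 21.79 in CaPS ESC, against 18.05 and 28.73 in WT ESC. The log2 ratios were −0.63 at Fzd6, −0.62 at Fzd2, −0.25 at Fzd8 and −0.24 at Fzd1, the highest of the 8 was 0.05, and the limma adjusted p was 0.9997 at these genes. In experiment 1, where the median of all peaks was 0.30, 4 of 8 genes had a ratio below 0, and in experiment 5, where it was −0.32, 8 of 8 did. Fzd5 and Fzd7 had no H3K27me3 ChIP peak in ESC.

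CUT&RUN for H3K27me3, with 1 library each, gave Fzd1 226.68 tags per 10 M in CaPS ESC and 193.23 in WT ESC, a ratio of 1.17 beside a median of 1.18 for all peaks. Fzd3 had 190.21 in CaPS ESC and 160.64 in WT ESC, and Fzd4 had 47.23 in CaPS ESC and 33.89 in WT ESC. The ratios of Fzd8 and Fzd2 were below 1. Fzd8 had 56.02 in CaPS ESC and 89.61 in WT ESC (0.625, 95% interval 0.47 to 0.821), and Fzd2 had 13.03 in CaPS ESC and 23.79 in WT ESC (0.548, 95% interval 0.297 to 0.955, counting error only). None of the 7 genes passed 2-fold at its strongest peak, beside 1.08% of all peaks lower and 4.57% higher. A second Fzd1 peak, chr5:4749928-4751801, had 21.5 in CaPS ESC and 10.43 in WT ESC, a ratio of 2.06 (95% interval 1.103 to 4.011). Where the RING1B CUT&RUN library of CaPS ESC had 0 tags at Fzd1, H3K27me3 CUT&RUN thus had tags. The H3K27me3 ChIP peaks of Fzd1, chr5:4754041-4757419 and chr5:4759715-4761463, lay on either side of the start and did not cover it.

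**Figure D4:**
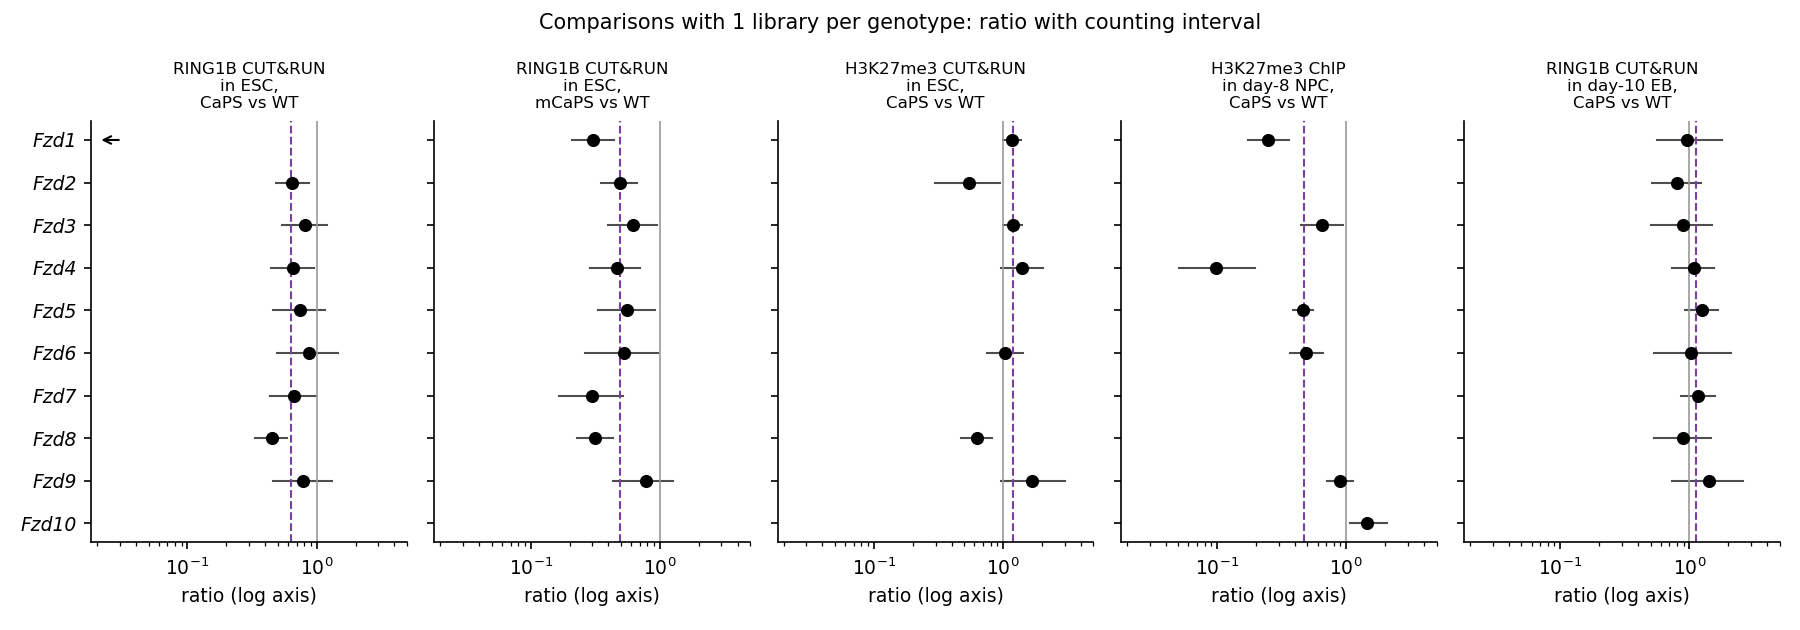
Ratio of CaPS to WT (log axis) with its 95% counting interval at the strongest peak of each Frizzled gene, and of mCaPS to WT for RING1B, in the comparisons with 1 library or 1 pooled column per group; the dashed line is the median of all peaks and the arrow is Fzd1 at 0 tags in CaPS. Day-8 H3K27me3 holds the lowest ratio above 0, 0.0983 at Fzd4.

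During neural differentiation RING1B went down at some Frizzled genes and not at others. In WT cells, Fzd1 was 5.70-fold lower on day 8 than in ESC, Fzd8 4.50-fold, Fzd2 2.94-fold, Fzd3 2.85-fold and Fzd9 2.36-fold. Fzd5 and Fzd7 had ratios above 1, and in CaPS cells Fzd7 passed the test with higher RING1B on day 6 and on day 8. The time course came from experiments 3 and 5 with peaks of its own, 9 of which belonged to 8 Frizzled genes. By their labels, its ESC libraries of experiment 3 were also those of the ESC RING1B ChIP above.

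Fzd1 had 251.55 and 250.05 tags per 10 M in CaPS ESC of experiments 3 and 5, 101.73 and 192.01 in CaPS cells on day 6, and 72.62 and 100.83 on day 8. In WT cells Fzd1 had 357.18 and 295.14 in ESC, 86.85 and 122.07 on day 6, and 49.52 and 63.69 on day 8. In both genotypes and both experiments the values went down at each step, and the stages did not overlap. Fzd8 had 277.62 and 297.58 in CaPS ESC, 146.85 and 313.83 on day 6, and 108.73 and 153.69 on day 8. In WT cells Fzd8 had 388.09 and 289.64 in ESC, 91.48 and 144.49 on day 6, and 71.11 and 76.59 on day 8. In CaPS cells experiment 5 thus showed no drop at Fzd8 by day 6, while experiment 3 did. Fzd2 had 182.3 and 223.18 in CaPS ESC, 125.17 and 239.5 on day 6, and 98.08 and 160.55 on day 8. In WT cells Fzd2 had 229.52 and 221.82 in ESC, 70.79 and 92.17 on day 6, and 59.25 and 97.55 on day 8. WT values of Fzd2 were lower on both days than in ESC without overlap, whereas CaPS values of day 6 and ESC overlapped.

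Other members of the time course were Fzd3, Fzd6 and Fzd9, with Fzd5 and Fzd7 given below. Fzd3 had 82.08 and 107.46 tags per 10 M in CaPS ESC, 65.9 and 123.88 on day 6, and 41.44 and 52.86 on day 8. In WT cells Fzd3 had 82.51 and 113.66 in ESC, 52.82 and 44.84 on day 6, and 23.28 and 47.56 on day 8. Day-8 values of Fzd3 lay below ESC values in both genotypes without overlap. Fzd6 had 55.61 and 51.66 in CaPS ESC, 33.62 and 80.52 on day 6, and 26.64 and 30.35 on day 8. In WT cells Fzd6 had 44.61 and 42.16 in ESC, 21.78 and 24.91 on day 6, and 21.59 and 31.44 on day 8. Fzd6 was lower on day 8 in each experiment, but did not pass the test in either genotype. Fzd9 had 58.25 and 84.73 in CaPS ESC, 50.87 and 76.39 on day 6, and 38.09 and 38.18 on day 8. In WT cells Fzd9 had 54.83 and 69.66 in ESC, 28.04 and 84.7 on day 6, and 22.01 and 29.83 on day 8. Its WT experiments went opposite ways by day 6 and the same way by day 8.

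Fzd7 behaved otherwise. It had 70.88 and 64.06 tags per 10 M in CaPS ESC, 157.02 and 268.41 on day 6, and 115.64 and 153.69 on day 8. In WT cells it had 57.51 and 76.99 in ESC, 93.66 and 97.16 on day 6, and 66.45 and 70.14 on day 8. Both CaPS day-6 and both CaPS day-8 values lay above both CaPS ESC values, while WT day 8 lay within the range of WT ESC. Fzd5 had 66.4 and 99.19 in CaPS ESC, 98.64 and 222.98 on day 6, and 90.18 and 123.35 on day 8. In WT cells it had 32.52 and 69.66 in ESC, 78.41 and 99.65 on day 6, and 46.98 and 74.17 on day 8. The peaks of these genes, chr1:59482580-59485587 and chr1:64732914-64737125, were exonic and began past the start, leaving the 300-base windows printed above uncovered. The other Fzd5 peak, chr1:64738313-64739743, had day-8 log2 ratios to ESC of −0.41 in CaPS cells and −0.17 in WT cells, so the direction at Fzd5 turned with the peak.

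**Figure D5:**
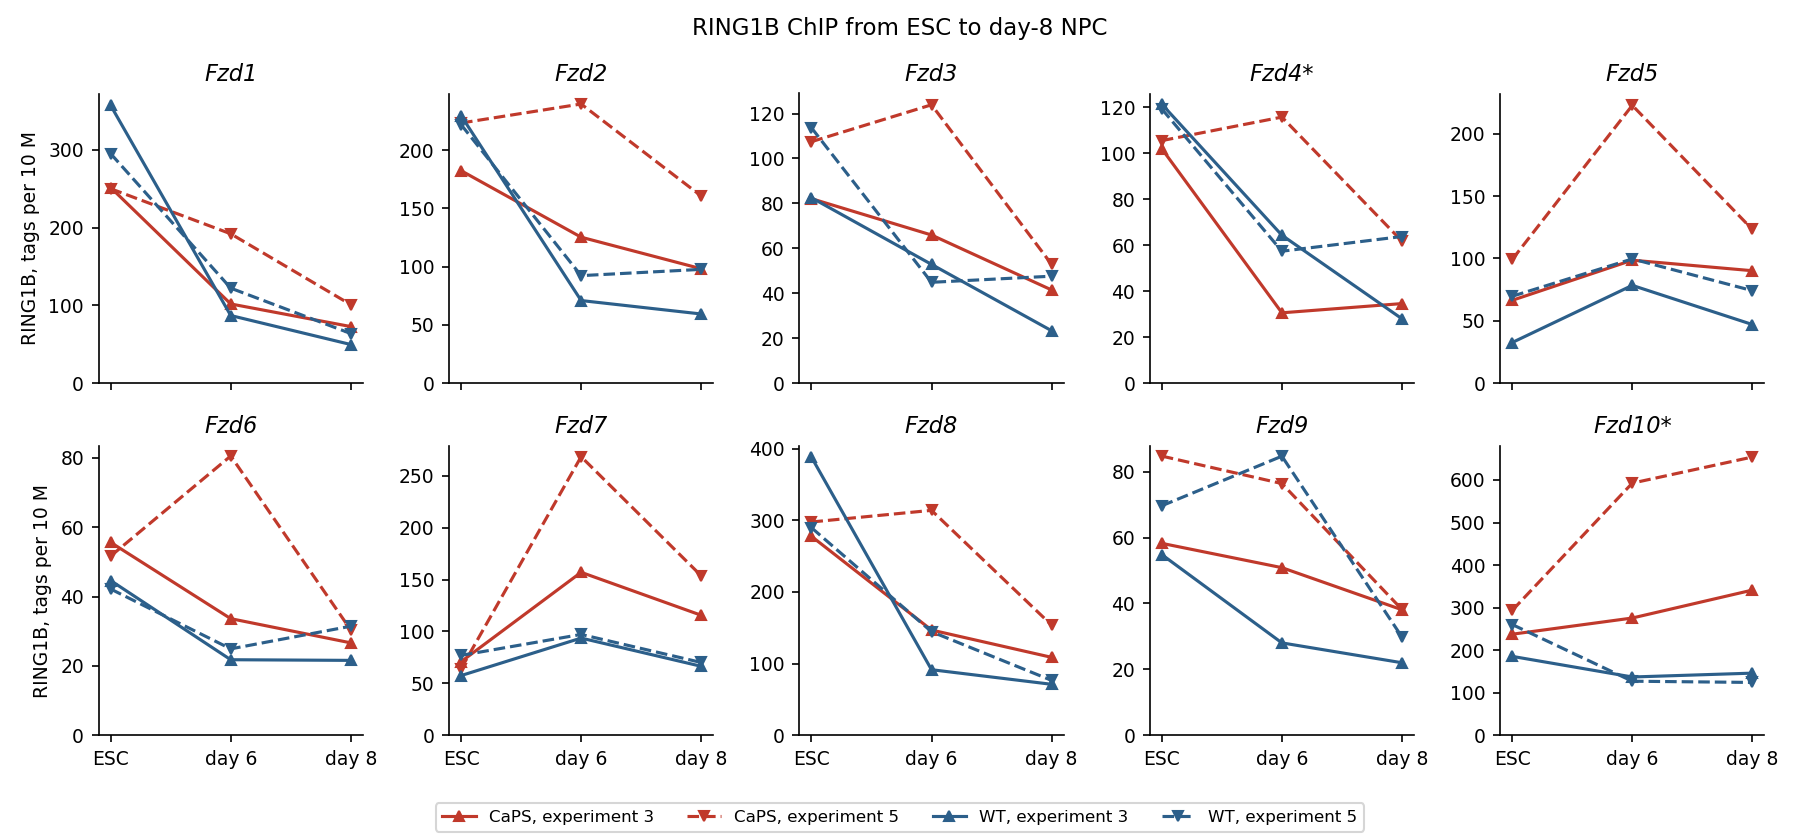
RING1B ChIP values (tags per 10 M, linear axes) in ESC and on days 6 and 8 for each Frizzled gene, CaPS red and WT blue, experiment 3 solid and experiment 5 dashed; starred panels show peaks over the Fzd4 and Fzd10 starts that were annotated to other genes. Fzd1 and Fzd8 are highest in ESC in WT cells, Fzd7 is highest on day 6 in CaPS cells, and the Fzd10 start stands on day 8 at 341.19 and 653.93 in CaPS cells.

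In WT cells 3 of 8 genes had lower RING1B on day 6 than in ESC, beside 14.6% of all 15091 peaks lower and 1.61% higher. These were Fzd1 with a log2 ratio of −1.65 (limma adjusted p = 0.000115), Fzd8 with −1.54 (0.000355) and Fzd2 with −1.47 (0.000704). Fzd3 missed the threshold at −0.98 (limma adjusted p = 0.0556), and Fzd5 at 0.88 (0.0804) and Fzd7 at 0.51 (0.35) lay on the other side of 0. Without the WT ESC library of experiment 3, Fzd1 alone was called. On day 8, 5 of 8 were lower, beside 20.9% of all peaks lower and 1.73% higher. Fzd1 stood at −2.51 ± 0.355 (SE, limma adjusted p = 1.59e-10), Fzd8 at −2.17 (3.825e-08), Fzd2 at −1.56 (0.00014), Fzd3 at −1.51 (0.000608) and Fzd9 at −1.24 (0.0107). Fzd5 at 0.30 (limma adjusted p = 0.609) and Fzd7 at 0.04 (0.961) were not. The median of the 8 genes was −1.37, beside −0.79 over the strongest peak of every gene.

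In CaPS cells 1 of 8 genes was called on day 6 against ESC, beside 5.06% of all peaks lower and 2.45% higher. It was Fzd7, 3.02-fold higher on day 6 (log2 ratio 1.59 ± 0.36, SE, limma adjusted p = 0.000769). Without the CaPS ESC library of experiment 5 it was 1.35 (limma adjusted p = 0.132), and without limma's trend its adjusted p was 0.141, so that 0 of 8 were called. Fzd1 stood at −0.84 (limma adjusted p = 0.118), Fzd8 at −0.42 (0.508) and Fzd5 at 0.86 (0.118). On day 8, 3 of 8 were called, beside 14.1% of all peaks lower and 1.63% higher. Fzd1 was 2.91-fold lower on day 8 (log2 ratio −1.54, limma adjusted p = 0.000315), Fzd8 2.21-fold lower (−1.15, limma adjusted p = 0.012) and Fzd7 1.96-fold higher (0.97, limma adjusted p = 0.0453). Fzd3 missed the threshold at −0.99 (limma adjusted p = 0.0531). Leaving out any 1 library of CaPS ESC or of CaPS day 8 left only Fzd1 called.

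These stage contrasts depended on how libraries were scaled. The share of tags in peaks was 10.1 and 11.1% in CaPS ESC, 5.61 and 12.1% on day 6 and 4.96 and 8.51% on day 8. In WT cells it was 11.2 and 11.8% in ESC, 5.89 and 6.59% on day 6 and 3.86 and 6.98% on day 8. Between day 8 and ESC in WT cells the median of all peaks was −0.61 as deposited, 0.36 with equal sums in peaks, 0.07 with TMM and 0.37 with DESeq2's size factors. In CaPS cells it was −0.48, 0.13, −0.04 and 0.18 in the same order. On day 8 in WT cells the split of 5 lower and 0 higher Frizzled genes became 2 lower and 2 higher with equal sums. Fzd1 and Fzd8 were then lower, and Fzd5 and Fzd7 higher. The split became 4 lower and 2 higher with TMM, and 2 lower and 2 higher with DESeq2, which called 1238 of all 15091 peaks. With equal sums Fzd5 stood at 1.43 and Fzd7 at 1.17 on day 8 in WT cells, beside the median of 0.36 for all peaks. On day 6 in WT cells 3 lower and 0 higher became 1 lower and 2 higher with equal sums, and 3 lower and 2 higher with TMM and with DESeq2. In CaPS cells the day-8 split of 2 lower and 1 higher became 1 lower and 2 higher with each of the 3 scalings. On day 6 in CaPS cells Fzd5 and Fzd7 were both higher under each, with Fzd1 lower under TMM, which called 2283 of all peaks. Under all of these scalings Fzd1 was lower on day 8 than in ESC in both genotypes. Over all alternative settings, calls among all peaks ran from 1238 to 4577 for day 8 in WT cells and from 1 to 3148 for day 6. In CaPS cells they ran from 197 to 4843 for day 8 and from 0 to 2283 for day 6.

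Whether the course differed between genotypes was tested with an interaction term, and 0 of 8 genes passed it on either day, beside 0.0199% of all peaks lower and 0.351% higher on day 6 and 0.0729% lower and 0.199% higher on day 8 (unadjusted p under 0.05 at 2022 and 1191 of 15091 peaks, limma). The difference of log2 ratios, CaPS minus WT, was 1.25 at Fzd2 on day 6 (limma adjusted p = 0.239), 1.12 at Fzd8 (adjusted p = 0.304) and 1.08 at Fzd7 (adjusted p = 0.329). On day 8 it was 1.02 at Fzd8 (limma adjusted p = 0.615), 0.97 at Fzd1 (adjusted p = 0.641) and 0.94 at Fzd7 (adjusted p = 0.655). The median of the 8 genes was 0.88 on day 6 and 0.70 on day 8, beside 0.46 and 0.29 over the strongest peak of every gene. All these contrasts share the ESC libraries.

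The starts of Fzd4 and Fzd10 were covered in the time course by peaks annotated to Tmem135 (chr7:89402230-89406045) and to 5930412G12Rik (chr5:128596040-128602792), which the rule does not count. Over the Fzd10 start there were 237.49 and 293.45 tags per 10 M in CaPS ESC, 275.56 and 592.56 on day 6, and 341.19 and 653.93 on day 8. In WT cells there were 185.44 and 260.31 in ESC, 136.95 and 127.05 on day 6, and 146.02 and 124.15 on day 8. CaPS values were thus above WT values on both days, without overlap. The same held for the counted peaks of Fzd2, Fzd7 and Fzd8, and the share of all peaks without overlap was not counted. In ESC the ratios of CaPS to WT over the Fzd10 start were also above 1, at 1.28 and 1.13 in experiments 3 and 5, with overlap. Day 8 against ESC gave a log2 ratio of 0.84 in CaPS cells (limma adjusted p = 0.0951) and −0.70 in WT cells (limma adjusted p = 0.152), and the interaction was 1.54 (limma adjusted p = 0.299). Over the Fzd4 start RING1B was lower on day 8 than in ESC in both genotypes, with log2 ratios of −1.15 in CaPS cells (limma adjusted p = 0.0187) and −1.49 in WT cells (limma adjusted p = 0.000697).

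Per kilobase of the counted time-course peaks, Fzd1 led the RING1B levels in ESC and Fzd7 on day 8, while Fzd2 was second at both. Fzd1 averaged 51.0 ± 0.219 tags per 10 M per kb in CaPS ESC and 66.4 ± 8.92 in WT ESC, and Fzd2 47.2 ± 6.74 in CaPS ESC and 52.6 ± 1.27 in WT ESC (SD, n = 2 each). Fzd7 averaged 22.4 ± 1.60 in CaPS ESC and 22.4 ± 4.58 in WT ESC. On day 8 Fzd7 led in both genotypes, at 44.8 ± 8.95 in CaPS cells and 22.7 ± 0.870 in WT cells. Fzd2 was then at 30.1 ± 10.3 in CaPS cells and 18.3 ± 6.31 in WT cells. Fzd1 was at 17.6 ± 4.06 in CaPS cells and 11.5 ± 2.04 in WT cells. Over the 12 libraries, with r taken on log2 values across 7875 genes as a description, the gene whose RING1B level ran most like Fzd1 was Ephb1 (0.99), like Fzd8 Wbscr17 (0.98), like Fzd7 Fbxl14 (0.96) and like Fzd5 Hist1h2ad (0.95). For Fzd2 it was Tmcc3 (0.95), for Fzd3 Adamtsl5 (0.95), for Fzd6 Fam53b (0.91) and for Fzd9 Fam129c (0.91). Within the family r was 0.95 between Fzd1 and Fzd8, 0.82 between Fzd5 and Fzd7 and −0.64 between Fzd1 and Fzd5. These points share stage, depth and share of tags in peaks.

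RING1B at other Wnt pathway genes on day 8 is read against the 14.1% of all peaks lower in CaPS cells and the 20.9% in WT cells. On day 8 against ESC in CaPS cells 15 of 18 ligand genes were lower and 1, Wnt16, higher (log2 ratio 1.01), and in WT cells 17 of 18 were lower, with a median of −2.31 in WT. Of the co-receptors 3 of 6 were lower in each genotype. Receptor turnover genes were lower at 2 of 6 in CaPS cells and 5 of 6 in WT cells, and secreted antagonists at 2 of 9 in CaPS cells, with Wif1 higher (1.16), and 6 of 9 in WT cells. Intracellular transducers were lower at 1 of 10 in CaPS cells and 2 of 10 in WT cells, and planar cell polarity genes at 1 of 7 in each, which is near the share of all peaks.

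A further day-8 table, with peaks called on NPC, gave RING1B in experiments 3 and 4. None of the 8 Frizzled genes with a peak passed the test between CaPS and WT, and none of 5393 peaks did (0.0% lower, 0.0% higher, 532 with an unadjusted p under 0.05, limma). Fzd7 had 110.7 and 68.78 tags per 10 M in CaPS NPC of experiments 3 and 4, against 61.91 and 55.45 in WT NPC, without overlap, and a log2 ratio of 0.57 (limma adjusted p = 0.903). Fzd8 had 21.9 and 25.2 in CaPS NPC, against 12.58 and 7.65 in WT NPC, also without overlap, and a log2 ratio of 1.18 ± 0.767 (SE, limma adjusted p = 0.61). A weaker intergenic Fzd8 peak went the other way, with 5.33 and 4.73 in CaPS NPC, against 8.22 and 13.38 in WT NPC, and a log2 ratio of −0.94 (limma adjusted p = 0.7165). Fzd5 had 89.98 and 118.13 in CaPS NPC, against 44.5 and 152.97 in WT NPC, so its direction differed between the experiments. Fzd10 had a peak of its own here, chr5:128601636-128602420, whose direction differed too. Its log2 ratio was 0.96 in experiment 3 and −0.17 in experiment 4, and 0.40 in the fit (limma adjusted p = 0.932). The fitted ratios of the other members lay between −0.29 and 0.40. Among them Fzd1 and Fzd6 also had CaPS values above WT values without overlap. At Fzd1 the closest values were 34.73 in CaPS NPC and 34.42 in WT NPC. The share of all peaks without overlap was not counted. All 8 genes were higher in CaPS in experiment 3, where the median of all peaks was 0.15, and 4 of 8 were lower in experiment 4, where it was −0.88. The family's median was 0.36, beside −0.31 over the strongest peak of every gene. With edgeR's TMM scaling Fzd7 was called higher in CaPS (0.90, adjusted p = 0.0342). Fzd3 and Fzd4 had no peak by the rule in this table. Experiment 3 on day 8 also stands in the time course.

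H3K27me3 on day 8, given in 1 column per genotype that its header calls pooled and hence without a test, was lower in CaPS NPC at most Frizzled genes, as it was at most peaks. Fzd4 had 5.17 tags per 10 M in CaPS NPC and 52.59 in WT NPC, a ratio of 0.0983 (95% interval 0.0504 to 0.196, from 17 and 23 tags, counting error only), and 3.2% of all peaks had a lower ratio. Fzd1 had 27.22 in CaPS NPC and 109.66 in WT NPC (0.248, 95% interval 0.174 to 0.361). Fzd5 had 172.42 in CaPS NPC and 375.97 in WT NPC (0.459, 95% interval 0.385 to 0.548), and Fzd6 had 66.6 in CaPS NPC and 136.51 in WT NPC (0.488, 95% interval 0.366 to 0.659). These were the 4 of 7 genes past 2-fold lower, beside 54.5% of 8657 peaks lower and 3.06% higher and a median ratio of 0.469. Fzd3 had 53.22 in CaPS NPC and 81.69 in WT NPC, and Fzd9 had 171.66 in CaPS NPC and 192.46 in WT NPC. Fzd10 went the other way, with 135.02 in CaPS NPC and 92.87 in WT NPC (1.45, 95% interval 1.07 to 2.08), and 94.7% of all peaks had a lower ratio. The CaPS column rested on 32.88 M tags with 8.2% in peaks and the WT column on 4.47 M with 16.4%, and their part in the ratios was not tested. By the rule, Fzd2, Fzd7 and Fzd8 had no H3K27me3 peak on day 8, while Fzd5, without one in ESC, had one, chr1:64734130-64737414. Peaks over a start but annotated to another gene were sought only at the 6 genes with a matched promoter. Fzd2, Fzd3, Fzd6 and Fzd8 are not among these.

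In EB on day 10, RING1B CUT&RUN passed 2-fold at the strongest peak of no Frizzled gene between the single CaPS and WT libraries. The ratios of the 9 Frizzled genes ran from 0.806 to 1.41, each with a counting interval that included 1, beside 8.84% of all 6547 peaks past 2-fold lower and 16.6% past 2-fold higher. Fzd5 had 88.2 tags per 10 M in CaPS EB and 71.13 in WT EB, and Fzd7 had 78.04 in CaPS EB and 67.07 in WT EB. Fzd1 had 20.73 in CaPS EB and 21.54 in WT EB, and Fzd8 had 25.2 in CaPS EB and 28.45 in WT EB. A second, weak Fzd7 peak, chr1:59473344-59473843, had 10.57 in CaPS EB and 5.28 in WT EB, a ratio of 2.00 (95% interval 0.768 to 6.95). Over the Fzd10 start there were 114.22 in CaPS EB and 97.96 in WT EB.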

How the data were processed

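Per the file headers, the deposited values were peak signals, tags within each peak scaled to 10 M per library. Tools in the submitters' processing notes are HOMER 4.10.4, SAMtools 1.9, Bowtie2 2.3.4.3 and cutadapt 1.14 with the builds mm10 and dm6. The sources do not state if spike-in reads entered the library totals. Per the series' design text, the authors averaged replicates where present and compared experiments run together, and same-numbered experiments were therefore taken as pairs. Correlations of paired deviations were 0.04 to 0.3 for CBX7, −0.02 to 0.23 for RING1B in ESC, 0.09 for H3K27me3, 0.25 for day-8 RING1B and 0.06 to 0.22 in the time course.

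From 9 of 10 tables, 41 library columns were analysed, and 2 further per-sample columns were left aside. KO libraries were not analysed here. Totals of 2.01 to 49.13 M tags gave floors (3 tags) of 0.611 to 14.947 tags per 10 M. Multiplying by header totals recovered whole read ends (0.5 tag) for 100% of values, with a largest residual of 0.049 and a tolerance of 0.1. Because the unit was a signal, limma 3.58.1 (R 4.3.3) with trend was fitted to log2(value + 1) over all peaks, in place of the count test planned for raw counts, with the experiment as a block and Benjamini-Hochberg adjustment at 0.05. Its estimated prior degrees of freedom were infinite, so each p rests on the spread usual for peaks of that strength. Fold changes are on this scale and understate low peaks. Where a group had 1 library, ratios have exact binomial (Clopper-Pearson) 95% intervals, which cover counting error only, and 2-fold is the size named. Alternatives used edgeR 4.0.16, DESeq2 1.42.0 and other scalings. All 10 Frizzled genes were named, each by its peak with the highest mean, and other genes by list or as the nearest pattern. Members, lists and tests were chosen with earlier results of these data known. The fit was tested on simulated data. Figures used matplotlib 3.10.9 and exact intervals scipy 1.17.1 (Python 3.11.15).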

Additional observations from a re-analysis of the deposited data

Results flagged for a closer look

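Fzd1 and Fzd3 were the Frizzled genes whose time-course RING1B difference between CaPS and WT changed sign with stage in both experiments. At Fzd1 the log2 ratio of CaPS over WT was 0.44 on day 6 and −0.37 in ESC, a difference of 0.81, and 0.60 on day 8, a difference of 0.97. At Fzd3 it was 0.88 on day 6 and −0.04 in ESC, a difference of 0.92, and 0.48 on day 8, a difference of 0.52. The ESC ratios of CaPS to WT at Fzd3 were 0.995 and 0.946 in experiments 3 and 5. Its change of sign thus started from nearly equal ESC values. Of all peaks 66.9 and 80.5% had a lower difference than Fzd1 on days 6 and 8, and 70.8 and 64.4% a lower one than Fzd3. How many of all peaks changed sign in both experiments was not counted. The interaction tests of these differences did not pass, with limma adjusted p = 0.473 and 0.641 at Fzd1 and 0.436 and 0.871 at Fzd3. Each group held 2 libraries, and all 4 differences rest on the same ESC libraries.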

How the results depend on the processing

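Of 82 fitted Frizzled ratios, 26 changed sign under some alternative, and none of the 20 that passed the limma test did. For CBX7 in ESC, 8 genes were called, against 0 with no replicate block (experiments unpaired), 0 with equal sums in peaks, 3 with edgeR and TMM, 0 with DESeq2, 0 without limma's trend and 3 to 8 when 1 experiment was left out. Fzd5 turned to −1.31 at its nearest peak and ranged from −0.10 to 0.63 when an experiment was left out. RING1B in ESC went from 0 to 4 without experiment 3 (range 0 to 4), and day-8 NPC to 1 with edgeR. For day 6 in WT, 3 became 5 with a mean of at least 20, 5 with edgeR, 5 with DESeq2, 0 without trend and 1 to 5 leaving out a library. For day 8 in WT, 5 became 2 without trend and 3 to 5 leaving out a library, where Fzd7 ran from −0.075 to 0.15. For day 6 in CaPS, 1 became 2 with equal sums, 3 with edgeR, 2 with DESeq2, 0 without trend and 0 to 1 leaving out a library, where Fzd8 ran from −0.87 to 0.033. For day 8 in CaPS, 3 became 1 with no replicate block, 5 with edgeR on header totals (chosen after seeing the data), 0 without trend and 1 to 4 leaving out a library. At the nearest peak Fzd5 read −0.17 and −0.41 on day 8 in WT and CaPS and −0.057 on day 6 in CaPS, and H3K27me3 at Fzd1 in ESC read 0.13. In RING1B CUT&RUN with equal sums, 2 genes past 2-fold became 1 in CaPS against WT, 5 became 0 in mCaPS against WT (Fzd4 1.04, Fzd2 1.09), and 2 became 1 in mCaPS against CaPS, also 1 with a mean of at least 20. H3K27me3 CUT&RUN went from 0 to 2. The interaction called 0 genes under every alternative. Over all peaks, CBX7 calls ran from 0 to 2805, RING1B in ESC from 0 to 1099 and day 8 in WT from 1238 to 4577. The cause of these shifts was not tested. Where 2 libraries met 2, leaving out a pair gave values with no test, and single-library comparisons have no replicate check.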
